A study of Drosophila melanogaster with 3 samples.

Results

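The regions described are the binding sites of the GFP-tagged product of the Drosophila melanogaster gene CG3838 (brickwall, brwl) that lie at divergent gene pairs, that is, at pairs of protein-coding genes that start close together and are transcribed away from each other. A peak, meaning 1 summit of the authors' thresholded list on genome build dm6, belonged to the set if its summit lay no more than 500 bp from any annotated transcription start site (TSS) and if the nearest protein-coding TSS had, within 1000 bp behind it, the TSS of another protein-coding gene on the other strand. Of 2239 peaks, 1272 were promoter peaks and 541 of these met the rule, which is 42.5% of the promoter peaks (exact Clopper-Pearson 95% interval 39.8 to 45.3%) and 24.2% of all peaks. The other 731 promoter peaks serve as the comparison. The 541 summits fell at 520 pairs, 21 pairs holding 2 summits each, and 1039 genes had at least 1 of them.

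The protein was mapped by chromatin immunoprecipitation and sequencing (ChIP-seq) in whole embryos of pooled males and females, aged 0 to 24 h, of 1 stable transgenic line in which GFP is joined to the C-terminal end of CG3838. The description of the samples names an antibody to GFP, while their antibody field names CG3838, and chromatin was sonicated to fragments of 200 to 800 bp. The samples form 1 group of 3 biological replicates set against 1 shared control, so the comparisons are between kinds of promoter, and values from the list of every replicate are given where they were computed. The promoter or insertion that drives the transgene is not stated. No line without the tag was used here and accessibility was not measured, so signal from open chromatin cannot be told apart from binding. The files hold no read counts and the depth is unknown.

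In a divergent pair the stretch between both start sites, called the gap here, serves as the upstream region of both genes. In Drosophila such pairs are common, and many of them join housekeeping genes whose core promoters carry elements such as the DNA replication-related element (DRE, bound by the factor DREF) or Motifs 1, 6 and 7. The gap is usually free of nucleosomes in active pairs, and insulator proteins such as BEAF-32 are known to bind there.

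The gaps of 6 pairs show the setting of the peaks. Each runs from the base after the TSS of the reverse-strand gene, named first, to the base before the TSS of the forward-strand gene, so that it holds the sequence between the start sites of the pair. They are read 5′ to 3′ on the forward strand of dm6 from the RefSeq assembly, release 6. Capitals mark matches, on either strand, to DRE (TATCGATA), its inner CGATA, which is also the core of BEAF-32 sites, the E-box CAGCTG, or Motif 1, 6 or 7. The first pair was chosen as the strongest member with a gap of 60 to 300 bp and its summit inside, RpS27/Nup37 as the strongest pair with a cytoplasmic ribosomal protein gene, and the others because together they show DRE, CGATA and Motifs 6 and 7; none of the 6 holds Motif 1.
Art3/mRpS10: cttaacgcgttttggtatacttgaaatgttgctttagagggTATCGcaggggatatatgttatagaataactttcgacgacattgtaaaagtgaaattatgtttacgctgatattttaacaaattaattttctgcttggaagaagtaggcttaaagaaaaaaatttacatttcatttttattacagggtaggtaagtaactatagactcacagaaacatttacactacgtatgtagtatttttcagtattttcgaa
Mkk4/SLIRP2: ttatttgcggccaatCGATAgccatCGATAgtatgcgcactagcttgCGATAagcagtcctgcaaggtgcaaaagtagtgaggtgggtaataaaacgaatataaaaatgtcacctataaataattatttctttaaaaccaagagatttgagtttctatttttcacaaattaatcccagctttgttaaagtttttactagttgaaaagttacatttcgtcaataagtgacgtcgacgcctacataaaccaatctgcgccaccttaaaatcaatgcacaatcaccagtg
RpS27/Nup37: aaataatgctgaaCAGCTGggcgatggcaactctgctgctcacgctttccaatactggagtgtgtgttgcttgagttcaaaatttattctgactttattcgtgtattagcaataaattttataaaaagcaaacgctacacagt
Atat/Shc: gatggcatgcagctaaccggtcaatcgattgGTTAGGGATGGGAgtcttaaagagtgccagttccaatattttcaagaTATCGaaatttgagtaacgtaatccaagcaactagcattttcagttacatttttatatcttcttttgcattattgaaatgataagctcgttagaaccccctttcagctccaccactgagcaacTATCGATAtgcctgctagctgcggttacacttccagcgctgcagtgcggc
elm/MED27: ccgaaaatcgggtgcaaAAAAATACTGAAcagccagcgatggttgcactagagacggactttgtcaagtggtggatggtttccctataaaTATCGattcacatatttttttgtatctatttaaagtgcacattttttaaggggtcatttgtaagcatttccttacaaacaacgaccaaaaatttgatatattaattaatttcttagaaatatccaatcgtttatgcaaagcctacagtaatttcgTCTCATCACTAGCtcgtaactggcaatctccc
Lon/PIG-F: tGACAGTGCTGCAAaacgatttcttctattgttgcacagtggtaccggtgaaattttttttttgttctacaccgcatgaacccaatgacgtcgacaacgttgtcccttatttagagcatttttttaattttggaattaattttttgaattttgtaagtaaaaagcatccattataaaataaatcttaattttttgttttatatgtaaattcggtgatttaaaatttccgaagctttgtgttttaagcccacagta

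The gap of Art3/mRpS10 is chr3R:15229409-15229664, with the summit at base 96 of its 256 bases, and the match to CGATA begins at base 42. The gap of Mkk4/SLIRP2, chr3R:8650797-8651083, has its summit at base 199, while its 3 matches to CGATA begin at bases 16, 26 and 48. That of RpS27/Nup37, chr3R:25247515-25247657, has its summit at base 20, next to the E-box at base 14. In the gap of Atat/Shc, chr3L:9426759-9427009, the summit is at base 139 and the DRE begins at base 202 of 251. In those of elm/MED27, chr3R:5654862-5655138, and Lon/PIG-F, chr3L:19612200-19612454, the summits are at bases 184 and 93. In 5 of the 6 gaps the summit thus lay apart from the marked matches, and RpS27/Nup37 is the exception. The same holds over the 424 members whose summit lay in a gap of 60 bp or more: the median distance of a DRE match was 127.5 bp from the summit and 39.5 bp from the nearer TSS, and 75.2% of the matches lay nearer to a TSS than to the summit. For Motif 7 the medians were 105 and 38 bp over its matches, and for the E-box CAGCTG 132 and 39.5 bp. TATAAA and the homeodomain core TAATTA lay the other way round, at medians of 94.5 and 87.5 bp from the summit and of 120.5 and 118.5 bp from the nearer TSS.

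The strongest members stood at genes of varied function. The highest signal was that of Ugalt/eIF2Bbeta, a UDP-galactose transporter and a subunit of the exchange factor of the initiation factor eIF2, on the X chromosome at chrX:2703712-2704048. The summit of this peak lay 21 bp from the TSS of Ugalt and 698 bp from that of eIF2Bbeta. Signal values are those of the authors' caller, in units not explained in the files. Here the signal was 1182 in the thresholded list and 329, 519 and 341 in the lists of replicates 1, 2 and 3. The peak at Art3/mRpS10, which encode an arginine methyltransferase and a protein of the small mitochondrial ribosomal subunit, had a signal of 875, with 244, 363 and 277 in the replicates. At Chro/Ssl1, the genes of the chromodomain protein Chromator and a subunit of the transcription factor TFIIH, it was 867, with 256, 375 and 238. Replicate 2 gave the highest value at all 3 pairs, and each of them ranked among the strongest 40 regions of every replicate.

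Further down the order came Tcs5/CHMP2B (843; 255, 326 and 251 in the replicates), the second of which encodes a subunit of the ESCRT-III membrane-cutting complex. PNPase/Gprk2 (826; 234, 313 and 277) pair an RNA-degrading phosphorylase with a kinase of G-protein-coupled receptors. Other pairs with a mitochondrial ribosomal protein gene were mRpL41/CG8079 (792), CenG1A/mRpS23 (733) and mRpL23/CG9004 (532). Of all such genes in pairs 25.9% had a member, near the 20.6% of all genes in pairs. The summit at CenG1A/mRpS23 lay 117 bp from CenG1A and 375 bp from mRpS23. The remaining pairs among the strongest 12 found in every replicate were CG9147/Fbw5 (744), CG8320/Pex11ab (686), Pal1/Pdrg1 (580) and Mkk4/SLIRP2 (545), of which Mkk4 encodes a kinase that activates the stress kinase JNK. The peak of Mkk4/SLIRP2 ranked 54 and 50 in replicates 1 and 2 and 148 in replicate 3, while that of mRpL23/CG9004 ranked 60, 72 and 80.

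**Figure D1:**
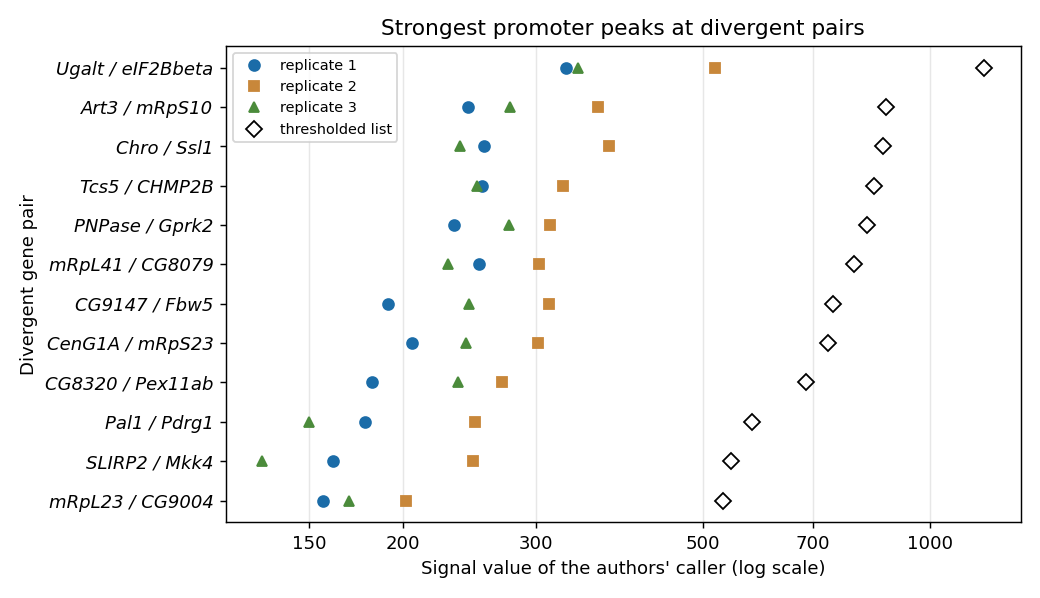
Signal value (horizontal axis, log scale, authors' units) of the 12 strongest members found in every replicate, in the thresholded list and in each replicate's own list. Replicate 2 lies highest of the replicates at every pair, and the thresholded value exceeds all 3, from 532 at mRpL23/CG9004 to 1182 at Ugalt/eIF2Bbeta.

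Per length of promoter sequence, divergent pairs were marked more densely than other promoters. The members made 143 summits per Mb of promoter sequence at divergent pairs (3.79 Mb, 20.8% of all promoter sequence), compared with 50.5 per Mb over the other 14.5 Mb. The ratio was 2.83 (exact conditional binomial test of the rates, two-sided, p = 1.15e-68), and it was 2.65, 2.52 and 3.17 in the lists of replicates 1, 2 and 3, a mean of 2.78 ± 0.344 (SD, n = 3). Summits and pairs are not independent replicates, so this p-value and those below describe the list. The 3 replicates alone cannot reach p = 0.05, since the smallest p of an exact sign-flip test over them is 0.25. The density is one per length and not per gene, since both genes of a pair share the gap. Genes in divergent pairs were 36.2% of all protein-coding genes, while these pairs held 20.8% of the promoter sequence and 42.5% of the promoter peaks. A ratio per gene was not tested.

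Inside the thresholded list no difference in signal was detected between members and other promoter peaks. Members had a median signal of 152.8 (quartiles 122 and 203, range 104 to 1182) and the other promoter peaks one of 152.4. Of the members, 283 (52.3%, exact 95% interval 48.0 to 56.6%) lay above the median of the list, compared with 388 of the others (53.1%, 49.4 to 56.7%, Fisher's exact test, two-sided, odds ratio 0.970, p = 0.820). Members were found among the strongest 2239 regions of all 3 replicates in 305 cases (56.4%) and the others in 418 (57.2%, odds ratio 0.968, Fisher's exact p = 0.775). For being found in both replicates 1 and 2, with replicate 3 left out, this odds ratio was 0.751 (Fisher's exact p = 0.0226). Members were found in 80.8%, 78.2% and 82.4% of cases in replicates 1, 2 and 3. The other promoter peaks were found in 82.8%, 84.4% and 76.3%.

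Across the whole pooled list, by contrast, the share at divergent pairs fell among weak regions. It was 37.5% of the promoter summits among ranks 1 to 500, 48.1% among ranks 501 to 1000 and 42.5% among ranks 1001 to 2239. Below the threshold it was 37.8% for ranks 2240 to 5000, 30.5% for ranks 5001 to 10000 and 24.8% for the rest. Of the 4485 promoter regions under the threshold, 1382 (30.8%) lay at divergent pairs, a smaller share than in the thresholded list (odds ratio 1.66, Fisher's exact test, two-sided, p = 1.35e-14). At pairs without a thresholded peak the strongest weak regions reached 103.5 at CRIF/SMC5, 103.4 at Dhod/Sys1 and 103.2 at hrg/Kpc2, next to the lowest member signal of 103.6.

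The summits lay mostly between both start sites. Upstream of the nearest TSS, and so inside the gap, were 426 members (78.7%), or 433 per Mb, compared with 41.0 per Mb downstream, a ratio of 10.5 (exact conditional binomial test, p = 7.63e-145). In the replicates the ratio was 8.82, 8.57 and 12.4. Other promoter peaks also lay upstream in 590 cases (80.7%), at 81.2 per Mb and 19.6 per Mb downstream, a ratio of 4.15 (exact conditional binomial test, p = 1.89e-65). The share upstream was thus alike in size, while the length of sequence that it came from was not, since a gap ends at the partner. The median summit position was 79 bp upstream of the TSS at members and 159 bp upstream at the others. By annotation, 346 members (64.0%) lay between genes, 120 (22.2%) in an untranslated exon, 67 (12.4%) in an intron, 5 in a non-coding exon and 3 in a coding exon. Among the others 42.3% lay between genes and 34.3% in an intron.

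At equal distance from the TSS the density was higher at divergent pairs close to the start site. Of 20 bins of 50 bp, 8 passed an adjusted p of 0.05 (40% of the bins, exact conditional binomial tests with Benjamini-Hochberg adjustment), and the density was higher at members in each of them. The highest densities were 717 per Mb in the bin that ends 150 bp upstream, where the other promoters had 146, and 650 per Mb in the bin that ends 100 bp upstream, where they had 114. Just downstream of the TSS, from 0 to 49 bp, members made 188 per Mb and the others 49.2, a ratio of 3.82 (exact test, adjusted p = 3.75e-09). Beyond 150 bp downstream no bin held more than 4 members and none passed the threshold.

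**Figure D2:**
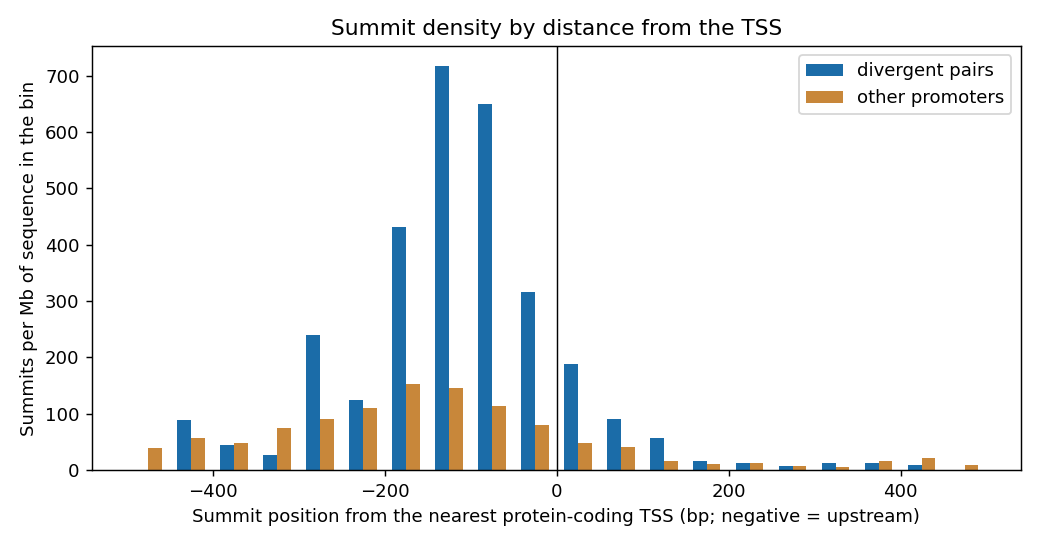
Summits per Mb of sequence (vertical axis) in 50 bp bins of distance from the nearest protein-coding TSS (horizontal axis, bp, negative upstream), for divergent pairs and other promoters. Divergent pairs reach 717 per Mb in the bin that ends 150 bp upstream, where other promoters reach 146, and both are low beyond 150 bp downstream.

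Within the gap the summits lay most often in the middle. Of the 424 summits in gaps of 60 bp or more, 187 (44.1%, exact 95% interval 39.3 to 49.0%) lay in the middle of 3 equal parts, compared with 33.3% under an even spread (exact binomial test, two-sided, p = 4.19e-06). In the replicates this share was 38.1%, 41.7% and 45.3%. It was 55.6% of 153 summits (exact 95% interval 47.3 to 63.6%) in gaps over 200 and up to 300 bp. In gaps up to 500 bp it was 45.2% of 155 (37.2 to 53.3%). It was lower, at 37.8% of 37 (22.5 to 55.2%), in gaps of 60 to 200 bp, and 22.8% (14.1 to 33.6%) in gaps of over 500 bp. The intervals of the shortest and longest classes include an even spread, and those of the classes between 200 and 500 bp lie above it. In gaps of over 500 bp the summit kept a median distance of 150 bp from the nearer TSS. That distance was 31, 91 and 117 bp in the 3 shorter classes. In the pooled list before thresholding the share in the middle was 35.5% (exact binomial p = 0.104).

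Of all 2640 divergent pairs, 566 had a thresholded summit within 500 bp of either TSS, which is 21.4% of the pairs (exact 95% interval 19.9 to 23.1%), and 19.4%, 19.2% and 23.5% in the replicates. Another 1050 pairs had only a weaker pooled region. The share depended on the gap, and not in 1 direction. It was 17.3% at gaps of up to 100 bp and 16.9% between 100 and 200 bp, then 33.0% (29.1 to 37.2%) between 200 and 300 bp and 29.4% (24.9 to 34.2%) between 300 and 400 bp. At larger gaps it was 16.5%, 12.2% and 15.3% in the classes that end at 600, 800 and 1000 bp. The intervals of both classes between 200 and 400 bp lie above that of every other class. Pairs with gaps of up to 300 bp had a peak in 23.6% of cases and wider pairs in 19.2% (odds ratio 1.30, Fisher's exact test, p = 0.00595), but this single contrast cuts through the range of high shares, and with partners within 500 bp only its odds ratio was 0.921 (Fisher's exact p = 0.467).

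**Figure D3:**
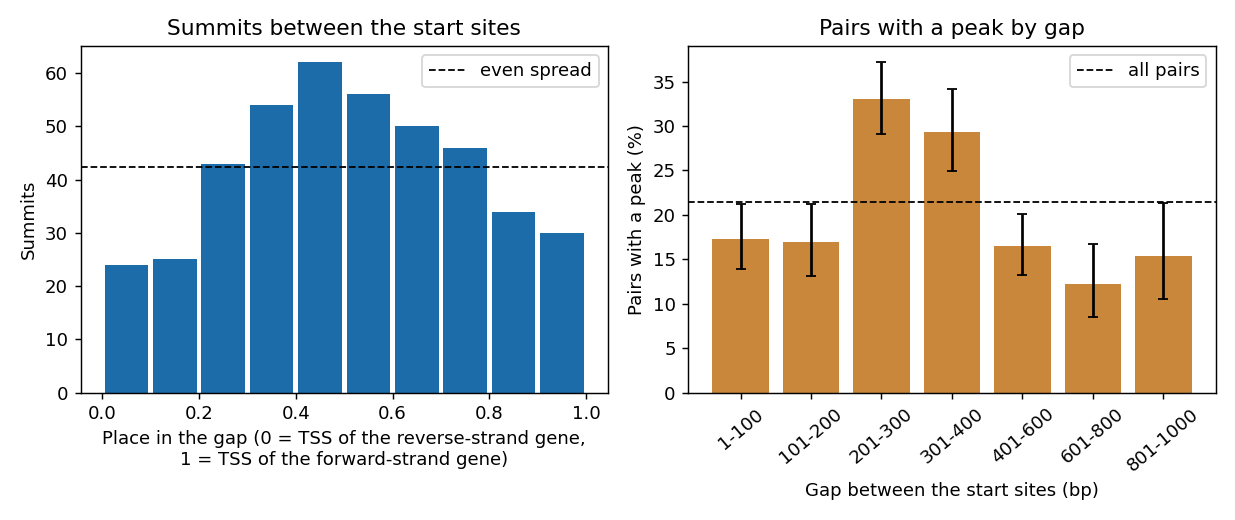
Left, number of member summits by place in the gap, from 0 at the TSS of the reverse-strand gene to 1 at that of the forward-strand gene, for 424 summits in gaps of 60 bp or more. Right, share of divergent pairs with a peak (%) by gap (bp) with exact 95% intervals, which reaches 33.0% between 200 and 300 bp, while the dashed line marks the 21.4% of all pairs.

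The members with the extremes of the gap ranged in signal from 119 to 195. The shortest gaps were those of Pisd/Atg6, the genes of a phosphatidylserine decarboxylase and of an autophagy factor, with 1 bp and a signal of 123.5, and of CG3032/CG4593, with 6 bp and a signal of 128. The longest were those of Pax/Lectin-galC1, with 977 bp and 195, and of l(1)G0469/Prp16, with 958 bp and 119. Just outside the limit of 1000 bp stood promoter peaks at CG11961/Rgk1, with a gap of 1007 bp and a signal of 309.6, and at CG9992/CG4239, with 1012 bp and 177. The members inside the promoter window by their protein-coding TSS and nearest to its edges were CG5854/RpS19b, 444 bp downstream, and CG13058/CG13038, 411 bp upstream. Marf/swa and baz/xmas, at 516 and 524 bp, fell just outside. At 3 members the promoter was that of a non-coding gene and the nearest protein-coding TSS lay beyond 500 bp, namely Socs36E/CG17681 (6916 bp), CG9300/Ltn1 (8384 bp) and Septin2/Srp72 (535 bp).

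On the X chromosome divergent pairs had a peak less often. Of 402 pairs on X, 45 had one (11.2%, exact 95% interval 8.28 to 14.7%), compared with 521 of 2227 on the major autosomal arms (23.4%, 21.6 to 25.2%), odds ratio 0.413 by Fisher's exact test (two-sided, p = 7.67e-09). The replicates gave 10.9%, 10.4% and 11.4% on X, and 21.0%, 20.9% and 25.8% on the autosomal arms. X lay below the arms in each of the 3 replicates, and every single arm had a higher share, with 22.6% on 2L, 19.1% on 2R, 26.5% on 3L and 25.1% on 3R. Chromosome 4 had a peak at 0 of its 11 pairs. The gaps were of similar length, with a median of 305 bp on X. The difference was also seen at gaps of up to 300 bp (12.6% and 25.7%, odds ratio 0.415) and beyond (9.85% and 21.0%, odds ratio 0.410), a split chosen after seeing the data.

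At other promoters no such difference was detected, and the difference between both kinds of promoter was itself tested. Members made 77.5 summits per Mb on X, a ratio to the autosomal arms of 0.497 (exact conditional binomial test, p = 8.40e-07), while the other promoter peaks made 53.9 per Mb on X, a ratio of 1.07 (exact conditional binomial test, p = 0.518). The ratios differed by a factor of 0.466 (exact conditional test of the counts per length, two-sided, on Fisher's noncentral hypergeometric distribution, p = 1.53e-05). Weak regions behaved differently from strong ones: the ratio of X to autosomal density at divergent pairs was 0.331 among ranks 1 to 500, 0.506 for ranks 501 to 1000 and 0.567 for ranks 1001 to 2239. It was 0.794 for ranks 2240 to 5000, 1.21 for ranks 5001 to 10000 and 1.38 among the weakest regions. At other promoters it ranged from 0.823 to 1.20 over the same classes. With pooled regions of any strength, 60.7% of the X pairs and 61.5% of the autosomal pairs had one (odds ratio for the pooled list 0.968, Fisher's exact p = 0.781). The lower density on X was thus seen among strong regions, although the strongest member of all, at Ugalt/eIF2Bbeta, was on X. The median signal of the members was 143 on X. The embryos were pooled from both sexes.

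**Figure D4:**
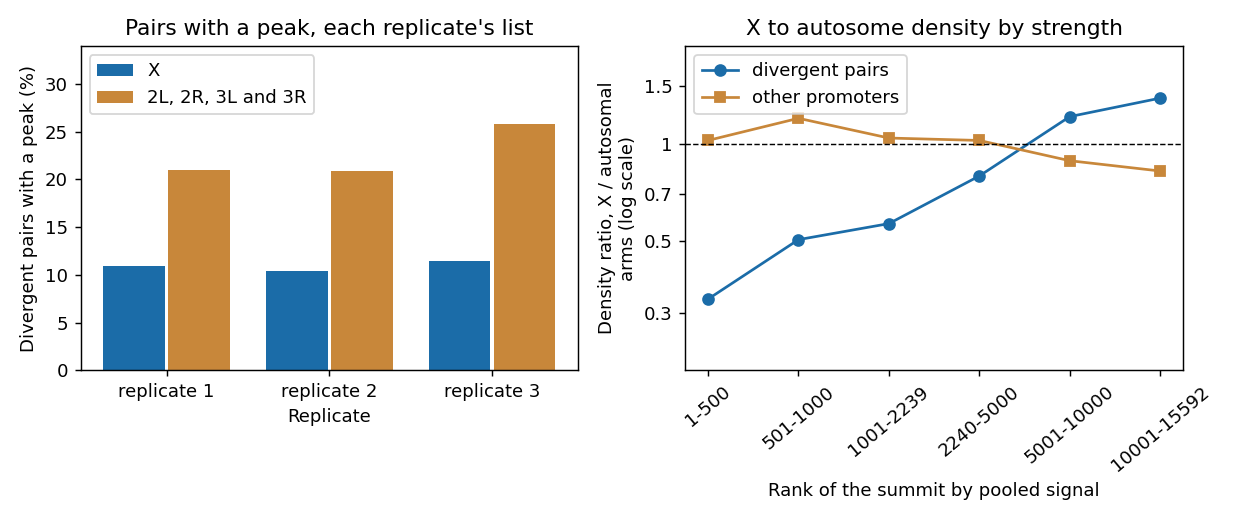
Left, divergent pairs with a peak (%) on X and on the arms 2L, 2R, 3L and 3R, in the strongest 2239 regions of each replicate. Right, ratio of X to autosomal summit density (log scale) by rank of pooled signal, which rises from 0.331 to 1.38 at divergent pairs and stays between 0.823 and 1.20 at other promoters.

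The sequence under the members differed from that under other promoter peaks. In windows that reach 100 bp to each side of the summit, searched on both strands, 9 of 16 motifs differed at an adjusted p under 0.05 (56.2% of the motifs tested, Fisher's exact tests, two-sided, Benjamini-Hochberg adjustment over 16), of which 8 were more frequent at members. DRE was held by 61 members (11.3%) and 3.28% of the others (odds ratio 3.74, adjusted Fisher's exact p = 1.40e-07), Motif 7 by 15.0% and 5.61% (odds ratio 2.96), and Motif 6 by 2.59% and 0.410% (odds ratio 6.45, adjusted Fisher's exact p = 0.00256). The core CGATA, which every DRE also contains, was in 43.3% and 29.7%. The E-box CAGCTG was in 14.6% and 9.03%, and its extended form, CAGCTGAT or CAGCTGTT, in 9.06% and 4.65%. TATAAA was in 43.6% and 33.4% and TAATTA in 18.5% and 13.3%. Members were richer in A and T, with a median G+C content of 34.3% compared with 36.3%, and the part of base composition in these results was not tested.

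GAGAG, the core of GAGA factor sites, went the other way, with 15.0% of the members and 28.6% of the others (odds ratio 0.440, adjusted Fisher's exact p = 1.22e-07). Its odds ratio was 0.438, 0.443 and 0.417 in replicates 1, 2 and 3. DRE had odds ratios of 4.43, 3.88 and 2.86 in the replicates and Motif 7 of 2.56, 3.54 and 2.19, all past the threshold. In replicate 3 Motif 6, the E-box and its extended form missed it, with odds ratios of 2.26, 1.31 and 1.61. With summits 1 to 150 bp upstream of the TSS only, a restriction chosen after seeing the data that leaves 351 members and 214 others, the number of motifs past the threshold was 3, namely DRE (odds ratio 2.43), TATAAA (1.74) and GAGAG (0.531), each at an adjusted Fisher's exact p of 0.0247. There Motif 7 (odds ratio 1.40, adjusted Fisher's exact p = 0.393), Motif 6 (4.08), CGATA (1.48), TAATTA (1.27), the E-box (1.19) and its extended form (1.17) missed it.

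Divergent and other promoters also differed in these motifs over the genome as a whole, given here as shares with no test. Windows of the same length were centred on all annotated protein-coding start sites, 6036 at divergent pairs and 13239 others. In these DRE was held by 12.2% and 3.84% (6.44% of all), Motif 7 by 12.8% and 4.08% (6.80% of all), CGATA by 48.9% and 31.7% (37.1% of all) and GAGAG by 18.3% and 28.0% (25% of all). For Motif 6 the shares were 2.67% and 0.869% (1.43% of all), for CAGCTG 17.6% and 11.5% (13.4% of all) and for its extended form 11.8% and 5.36% (7.37% of all). TATAAA was close to equal there, at 27.3% and 26.8% (26.9% of all), and TAATTA was in 11.7% and 8.35% (9.39% of all). At divergent pairs both shares were lower there than under the members, in windows that are centred on start sites and not on summits. The same held at other promoters, where the peaks had TATAAA in 33.4% and TAATTA in 13.3%. Other motifs called more frequent at members were not more frequent there than at divergent start sites. These were DRE (11.3% of the members), CGATA (43.3%), Motif 6 (2.59%), CAGCTG (14.6%) and its extended form (9.06%). Motif 7, in 15.0% of the members, was more frequent under them than at divergent start sites, and GAGAG, also in 15.0%, was less frequent.

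Among divergent pairs themselves, those with a peak were compared with those without. In windows centred on the middle of the gap only the initiator, TCAGTC or TCAGTT, passed the threshold (1 of 16 motifs, 6.25%), and 3 motifs had an unadjusted Fisher's exact p under 0.05. The initiator was in 12.9% of the pairs with a peak and in 19.5% of those without (odds ratio 0.610, adjusted Fisher's exact p = 0.00343). Its odds ratio was 0.606, 0.649 and 0.571 in the replicates. The call was lost in 7 of 14 alternatives, among them without replicate 2 (0.668, adjusted Fisher's exact p = 0.0790), without replicate 3 (0.665, 0.0877) and with windows reaching 50 bp (0.812, 0.477) or 200 bp (0.834, 0.207). A window on the middle reaches the start sites themselves only in short gaps, and over pairs with a gap above 200 bp, chosen after seeing the data, the odds ratio was 0.722 (adjusted Fisher's exact p = 0.180). In those wider gaps 1 other motif passed instead, Motif 7, in 8.10% of the pairs with a peak and 2.88% of those without (odds ratio 2.98, adjusted Fisher's exact p = 1.54e-04). DRE was in 7.42% of the pairs with a peak and 8.92% of those without (odds ratio 0.818, adjusted Fisher's exact p = 0.453).

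Genes of the cytoplasmic ribosome had members more often than the background of genes in pairs, which is given beside them. The gene lists were chosen with earlier results of these data known, so their shares are descriptions and got no test. Of the 5052 genes in divergent pairs, 1039 had a member (20.6%), with a median signal of 155.3 at the strongest of their summits. Of 86 cytoplasmic ribosomal protein genes, 53 were in such pairs (61.6%, compared with 36.2% of all protein-coding genes), and 31 of these 53 had a member (58.5%, exact 95% interval 44.1 to 71.9%), with a median signal of 204.1. The strongest was RpS27/Nup37, where Nup37 encodes a nuclear pore subunit, with 524 and with 202, 226 and 93.0 in the replicates. RpL7/Ripalpha followed with 372 (148, 158 and 72.8), and RpL19/CG3776 with 315 (107, 118 and 84.7). Replicate 3 was the lowest at all 3 pairs.

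At these pairs the summit lay by the ribosomal protein gene. Of 33 summits, 26 (78.8%) were nearer to its TSS than to that of the partner, at a median of 59 bp from the one and 256 bp from the other, over a median gap of 333 bp. At the 15 summits of pairs with a mitochondrial ribosomal protein gene, 7 were nearer to that gene, at a median of 152 bp. Examples are RpL13A/Spec2, with the summit 50 bp from RpL13A and 299 bp from Spec2 at a signal of 268, and RpLP0/CG7130, with 27 and 309 bp at a signal of 225. RpL13, at a signal of 189, shares its gap with Dref, the gene of the DRE-binding factor, a pair named after its values were seen.

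Genes of glycosylphosphatidylinositol (GPI) anchor synthesis and of peroxisome assembly, taken as 1 list, had a member in 16 of 25 cases (64.0%, 42.5 to 82.0%), with a median signal of 155.7, close to that of all genes in pairs. This list was chosen with earlier results of these data known, so its interval is a description and not an independent test. Of the PIG genes, which make the GPI anchor, 8 of 13 in pairs had one, and of the Pex genes, which build peroxisomes, 8 of 12. At the 14 summits of pairs with 1 such gene, 5 (35.7%) were nearer to that gene, at a median of 140.5 bp. Pex11ab had the strongest summit at 686 (182, 271 and 237 in the replicates), 135 bp from its TSS and 102 bp from that of CG8320. PIG-F, which shares its gap with the mitochondrial protease gene Lon, had 406 (127, 125 and 156), 163 bp from its TSS and 93 bp from that of Lon. PIG-G had 231 (43.8, 84.5 and 112). Not every summit was found in all 3 replicates, and that of Pex11c was found in 1. Pex16 and Pex14 are each other's partner, with 1 summit of 122 in a gap of 535 bp.

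The other lists lay nearer to the background of 20.6%, and all their intervals included it except that of the receptor genes. Mitochondrial ribosomal protein genes had a member in 15 of 58 cases (25.9%), genes of RNA polymerases, Mediator and general transcription factors in 16 of 57 (28.1%), with MED27 at 274 beside elm, and translation factors in 9 of 28 (32.1%), with eIF4EHP at 365 beside CG18428. Vesicle traffic genes had one in 13 of 61 (21.3%), led by Vps33B at 340 beside Fur1, and oxidative phosphorylation genes in 9 of 44 (20.5%), led by ND-ASHI at 246 beside Fum1. Autophagy genes had one in 5 of 16 and Integrator and exosome genes in 6 of 18, a list built from symbols that also took in Rrp1, a DNA repair gene with a member, and Rrp5. Splicing (6 of 30), aminoacyl-tRNA synthetase (4 of 23), nucleoporin (3 of 18), replication and repair (4 of 25) and proteasome genes (4 of 26) ranged from 15.4% to 20%. Receptors of smell and taste had a member in 0 of 26 cases, which allows a share of up to 13.2% by the exact interval, and cuticle protein genes in 0 of 12, which allows up to 26.5%. In 10 members both genes belonged to a list, among them RpL28/eIF1 at 244, Sec6/Atg7 at 125 and Csl4/Nup160 at 107.

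**Figure D5:**
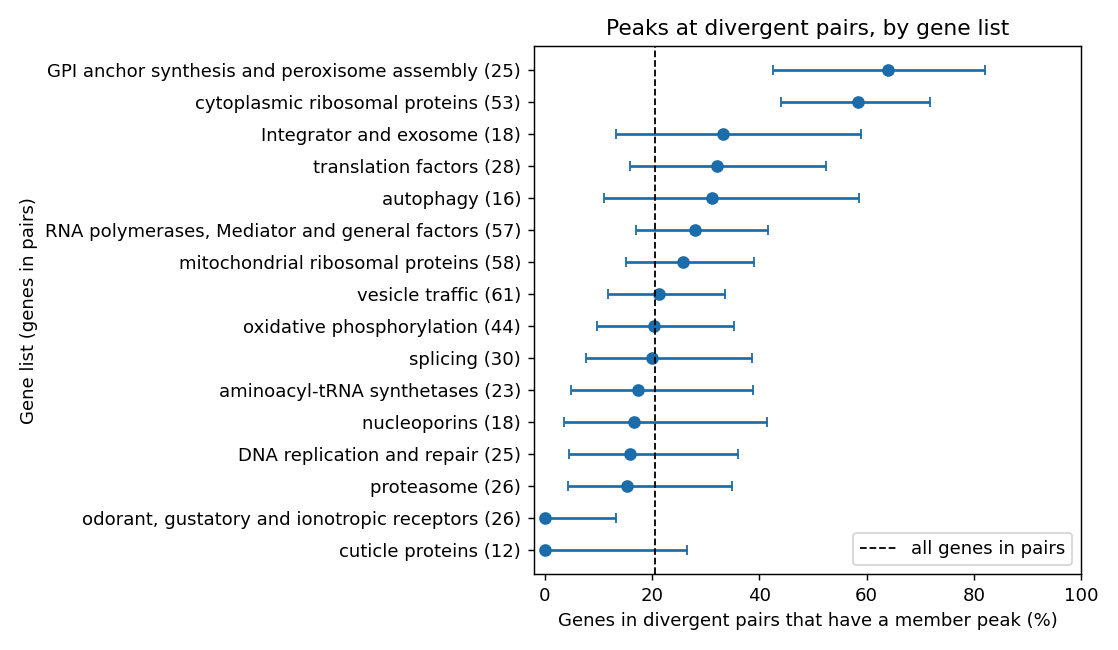
Share (%) of the genes in divergent pairs that have a member, for each gene list, with exact 95% intervals and the number of genes in pairs in brackets. The dashed line is the 20.6% of all genes in pairs. Cytoplasmic ribosomal protein genes (58.5%) and the list of GPI anchor and peroxisome genes (64.0%) have intervals wholly above it. The lists were chosen with earlier results of these data known and got no test.

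Genes known by a CG number alone were fewer than in the genome. They made up 306 of the 1039 genes with a member (29.5%), compared with 43.7% of all 13968 protein-coding genes. Their share among the 5052 genes in divergent pairs was not computed. A trait of divergent pairs in general therefore cannot be told apart from one of genes with a member. Where 1 gene of the pair had only such a number, the summit was nearer to it in 90 of 214 cases (42.1%). A divergent partner that codes for no protein did not count in the rule: 58 of the 731 other promoter peaks (7.93%) had 1 behind them.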

How the data were processed

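Per the labels and the README files deposited with the samples, the authors called peaks and background regions for each replicate and for the pooled replicates against 1 shared control file, and kept regions passing an irreproducible discovery rate threshold. Each region carries a signal value from the authors' caller, in units not explained, and a summit. Aligner, caller and their versions: not given in the sources used here; the depth is unknown. From these lists (dm6 only) summits were annotated with Ensembl release 115, without transposable elements, and sequence was read from the RefSeq release 6 assembly. Replicates were compared by their strongest 2239 regions, overlaps of 1 bp counting. Rates were compared by exact conditional binomial tests and shares by Fisher's exact tests, two-sided; 95% intervals are exact (Clopper-Pearson) and reflect counting error alone. Scripts used Python 3.11.15, scipy 1.17.1 and pandas 2.3.3 and were tested on simulated data. Named are the 12 strongest members found in every replicate, up to 3 pairs a gene list, the strongest holders of motifs, the extremes of the gap and the nearest cases at each limit. Gene lists were built from symbols. The members, lists and motifs were chosen with earlier results of these data known. Alternatives covered the promoter window, partner distance, gene ends, peak list, summits per interval, each replicate left out, and motif windows. With a replicate left out, peaks were not called anew. The peaks of the thresholded list found in both other replicates were kept, or counted for the share found in every replicate. That list and its signal values still derive from all 3 replicates.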

Additional observations from a re-analysis of the deposited data

How the results depend on the processing

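The density ratio (1.91 to 3.45) and the upstream ratio (5.25 to 15.1) kept their direction and stayed past the threshold under all 11 alternatives each, and the X odds ratio (0.237 to 0.968) did so under 12 of 13. The pooled list before thresholding ended the call on X (0.968) and on the middle of the gap (35.5%), and turned the odds ratio for short gaps (0.861), as did partners within 500 bp (0.921). The odds ratio for signal above the list median, which missed the threshold, turned to 1.01 with windows of 250 and of 1000 bp, 1.17 with partners within 500 bp, 1.05 with gene ends only, 1.04 for the strongest 500 peaks and 1.67 (Fisher's exact p = 4.09e-18) in the pooled list. It ranged from 0.856 to 1.09 with 1 replicate left out, that is, over thresholded peaks found in both other replicates. That for being found in every replicate turned to 1.03 with windows of 250 bp and to 1.10 with partners within 500 bp, and ranged from 0.751 to 1.11 with 1 replicate left out. It had no finite value for the strongest 500 peaks, and the pooled list was not run for it. The count of motifs at members was 5 with gene ends only, 1 for the strongest 500 peaks, 4 with windows reaching 50 bp to each side, 3 for summits 1 to 150 bp upstream, and 4 to 9 with 1 replicate left out. The count at pairs with a peak was 4 with partners within 500 bp, 0 with partners within 2000 bp or the strongest 500 peaks, 6 in the pooled list, 2 and 3 with windows reaching 50 and 200 bp, and 0 to 3 with 1 replicate left out. Fewer peaks enter some of these settings; the cause of the other changes was not tested. Of 139 values for single motifs, 99 kept direction and call, GAGAG in all 14 settings and DRE in 13. Lack of read counts, an untagged line and accessibility limits all values.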

Other observations

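Some genes of proteins known to act at insulators or housekeeping promoters were themselves at such pairs. Of 10 looked up after earlier results were known, 8 were in a divergent pair, compared with 36.2% of all protein-coding genes. A member was found at 5 of these, which is to be read against the 20.6% of all genes in pairs. These counts are too few for more than a description, and only the 5 genes with a member are named. Besides Chro (867) these were Cp190, the gene of an insulator cofactor, with 2 summits of 347 and 138 in its gap with CG4338 and at that partner's start, Dref (189), pzg (149) and M1BP (120), the last found in 1 of the 3 replicates. The Cp190 summit of 347 held a DRE match within its window and lay 91 bp upstream of the TSS, with signals of 85.6, 128 and 130 in the replicates. The tagged gene brwl was in no divergent pair.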
